A study of Dendroctonus valens with 12 samples.

Results

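By the deposited values, the 150 unigenes described here were higher in every May insect than in every January insect, in larvae and adults alike. They were chosen by their values: for each of the 58956 unigenes, the lowest of the 6 May values plus 1 was divided by the highest of the 6 January values plus 1, and the 150 largest ratios were taken. The study sequenced whole insects of *Dendroctonus valens*, the red turpentine beetle, to follow genes related to cold. Each of the 12 libraries was made from 1 insect, 3 in each of 4 groups. The groups were mature larvae collected in January (called cold in the records), mature larvae collected in May (called normal), adults collected in January and adults collected in May. All insects were taken from the field, and the sources used here do not state their sex. Whatever differs between January and May in the field, temperature included, cannot be told apart by month.

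*D. valens* bores under the bark of pines, where both larvae and adults feed on phloem. Leaf beetles, weevils and bark beetles carry genes for enzymes that open plant cell walls, among them cellulases and pectin-cutting polygalacturonases, and release the sugars with glycosidases. They digest protein mainly with cysteine proteinases of the cathepsin type together with serine proteases. A library of a whole insect sums over gut, fat body, muscle and cuticle, so fewer cells of a tissue and less RNA per cell cannot be told apart.

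Levels are in FPKM, numbers of fragments scaled for unigene length and for the mapped fragments of the library, a scale on which unigenes of different length can be compared. The sum of FPKM per library ran from 787758 to 1788300, and unigenes reaching 1 FPKM numbered 8291 to 16681 in May larvae, 16595 to 21622 in May adults, 15028 to 25771 in January larvae and 24717 to 28292 in January adults. May larvae 2 and 3 had the fewest, with 8291 and 8428, while May larva 1 lay within the range of the other groups. On the log2 scale May larva 1 correlated at 0.69 and 0.67 with May larvae 2 and 3, which correlated at 0.92 with each other. Median-of-ratios size factors, which scale a library to the typical unigene, were 0.401 to 0.601 in May larvae and 0.929 to 1.67 in the other 9 libraries. May larvae therefore stand lower for the typical unigene, and stage differences are given beside those of all unigenes tested. FPKM carry no read numbers, so the error of a value is known only from the spread among insects. Each p-value comes from limma, which pools the spread of both groups compared. It then draws that spread towards the one typical of unigenes at a similar level. The SE of a difference of larvae minus adults is the one limma gives. The SE of a difference of May minus January uses only the spread of the 3 insects in each group.

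The ratio was 12.8 for the first unigene, had a median of 1.96 and was 1.39 at place 150. Of the 150, 36 had a ratio of at least 3, 70 of at least 2, and 80 lay under 2. Just inside the limit were TRINITY_DN27226_c0_g4, TRINITY_DN24384_c6_g2, TRINITY_DN19831_c0_g2, TRINITY_DN26831_c0_g2 and TRINITY_DN25317_c0_g6, with ratios of 1.41, 1.41, 1.41, 1.40 and 1.39. Just outside were TRINITY_DN22611_c0_g1, TRINITY_DN25997_c0_g4, TRINITY_DN21836_c0_g2, TRINITY_DN27449_c1_g2 and TRINITY_DN25709_c0_g1, with 1.39, 1.38, 1.38, 1.38 and 1.38. Hence the limit marks no gap in the values. In all, 306 unigenes (0.519% of 58956) had every May value above every January value, which is the property the rule used, and 1386 had the reverse. With median-of-ratios scaling these counts were 643 and 1096, and with an equal FPKM sum per library 286 and 1032.

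A row in the parts of the annotation tables used here was found for 92 of the 150, and 89 of these had a named match, 86 of them in *Dendroctonus ponderosae*, the mountain pine beetle. The other 58 had no row. As 90 of the 92 come from the list of unigenes that the study selected on these same libraries, the annotation leans towards unigenes that changed, and counts per gene group are no independent evidence. Groups were formed by keyword, and 47 of the 150 fell in at least 1 group. As the base share for the group counts below, 92 of the 2652 unigenes with a row were among the 150. Within the part of the study's list used here it was 90 of 712. None of the 58 unigenes whose best match is a nematode and none of the 5 with a bacterial or fungal match was among the 150.

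In May the 150 unigenes together held 2.37, 2.21 and 1.57% of all FPKM in larvae 1 to 3 and 2.41, 1.43 and 2.23% in adults 1 to 3. In January they held 0.0815, 0.133 and 0.0459% in larvae 1 to 3 and 0.0482, 0.122 and 0.0820% in adults 1 to 3. The group means were 2.05 ± 0.426% (SD, n = 3) in May larvae and 2.02 ± 0.520% in May adults, against 0.0867 ± 0.0436% in January larvae and 0.0841 ± 0.0371% in January adults. The stages thus had nearly the same share in each month, while May adult 2 was the lowest of the May insects and January larva 2 and January adult 2 were the highest of the January insects. Not divided by the library total, the sum over the 150 was 28770, 23590 and 28033 FPKM in May larvae 1 to 3. It was 19926, 11268 and 17610 FPKM in May adults, so larvae lay above adults without overlap. In January the sums of the stages overlapped, with 518 to 1436 FPKM in larvae and 475 to 1193 FPKM in adults.

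The mean level over the 6 May insects had a median of 30.5 FPKM and ran from 2.15 to 2334 FPKM. It was 1072 FPKM or more in 6 unigenes and at least 100 FPKM in 30, these 6 included, lay between 10 and 100 FPKM in 87, and was under 10 FPKM in 33. The mean over the 6 January insects had a median of 2.0 FPKM. In January 105 of the 150 were under 1 FPKM in at least 1 insect and 26 in all 6. Listed at 0 were 39 in at least 1 January insect, 9 in all 3 January larvae, 3 in all 3 January adults and 1, TRINITY_DN24057_c1_g1, in all 6.

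**Figure D1:**
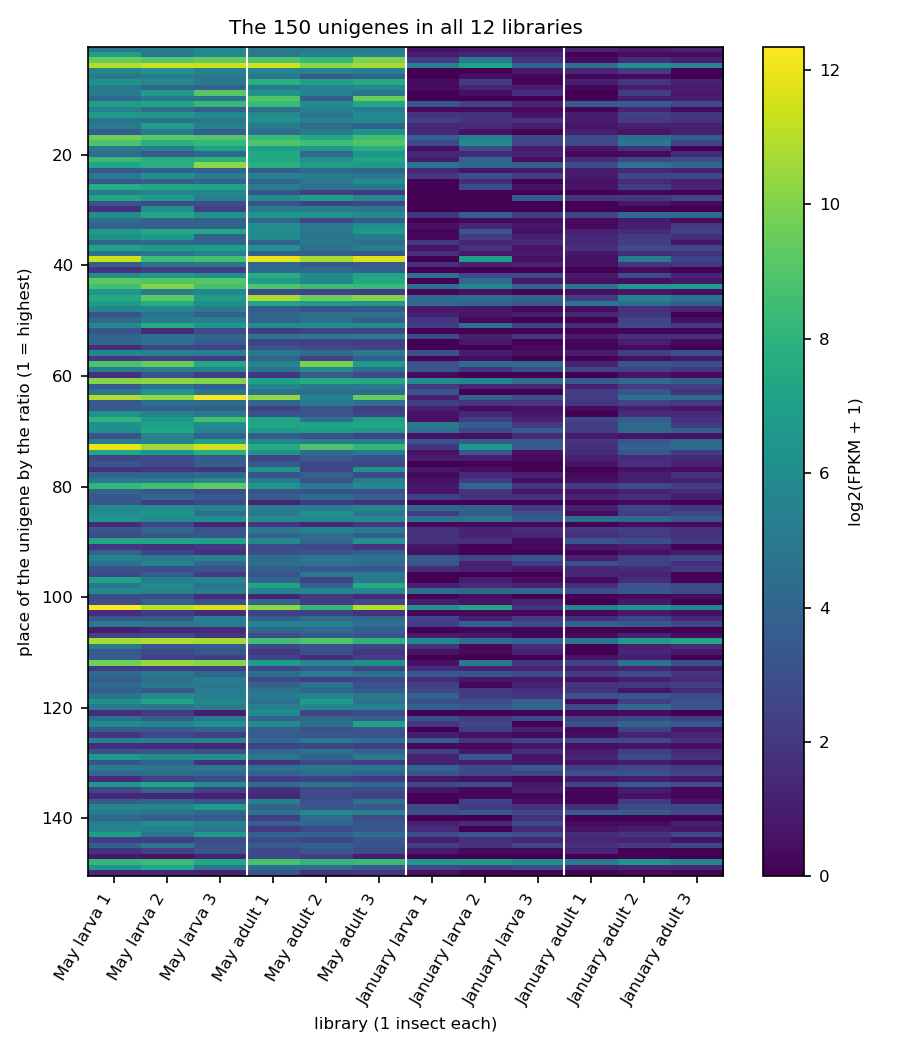
Levels of the 150 unigenes (rows, by the ratio of the rule) in the 12 libraries (columns, 1 insect each) as log2(FPKM + 1), white lines between the 4 groups. The May columns are brighter than the January columns in every row, as the rule requires; the brightest rows are the 6 unigenes with May means of 1072 FPKM or more.

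On the log2(FPKM + 1) scale the difference of May minus January had a median of 3.0 in larvae (range 0.83 to 8.51) and 2.68 in adults (1.12 to 8.76). Over all unigenes detected in a stage (1 FPKM in no fewer than 3 of its libraries), the same median was -1.26 in larvae (11635 unigenes) and -1.02 in adults (23423 unigenes). On the deposited scale the 150 thus stand against a background that is mostly higher in January. These medians depend on the scaling of the libraries and were not computed with another scaling. The difference was larger in larvae for 81 of the 150 and larger in adults for 69. These values are fixed by the rule in their direction and were not tested. The added 1 makes them too small for weak unigenes.

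**Figure D2:**
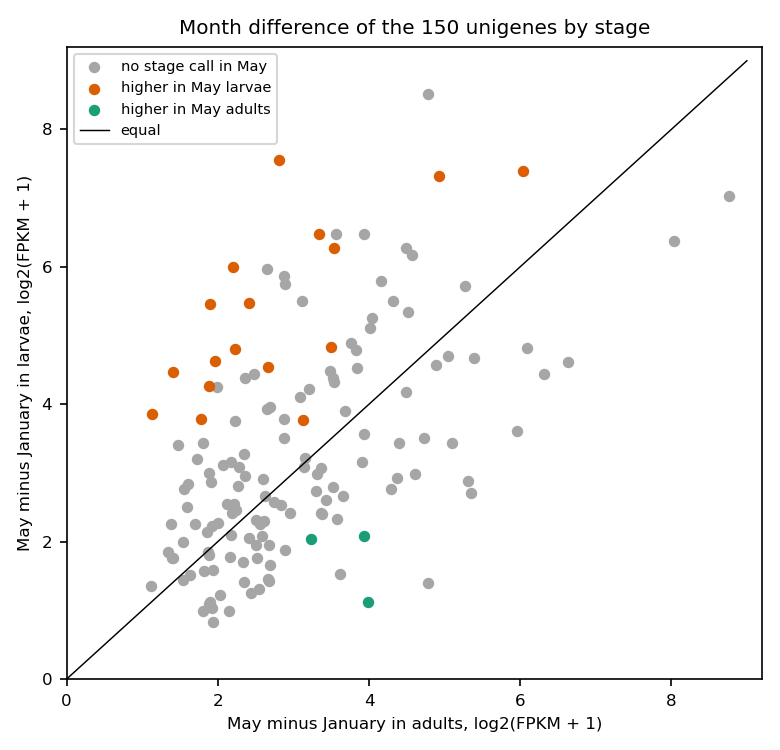
Difference of May minus January for each of the 150 unigenes, in adults (horizontal) and in larvae (vertical), on the log2(FPKM + 1) scale, with the line of equal differences. Orange and green points are the 17 and 3 unigenes called higher in May larvae and in May adults; the orange points lie above the line and the green points below it.

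The highest ratio, 12.8, belonged to TRINITY_DN22684_c0_g1, matched to the facilitated trehalose transporter Tret1, which in other insects carries trehalose, the main blood sugar, across cell membranes. It measured 28.5, 31.6 and 53.9 FPKM in May larvae 1 to 3, 30.1, 30.1 and 29.2 FPKM in May adults 1 to 3, 0.51, 0.82 and 0.57 FPKM in January larvae and 1.31, 0.86 and 1.29 FPKM in January adults. The 3 May adults were nearly equal, and the months lay far apart in both stages. May minus January was 4.53 ± 0.29 (log2, SE, n = 3 and 3) in larvae and 3.85 ± 0.10 in adults. A second Tret1 match, TRINITY_DN20184_c0_g1, measured 34.6, 16.1 and 13.97 FPKM in May larvae and 31.4, 43.8 and 54.8 FPKM in May adults, against at most 1.43 FPKM in January. Its May stages overlapped, with larva 1 above adult 1. Of the 35 sugar and solute transporters in the tables, 3 were among the 150 (the third, TRINITY_DN25142_c0_g2, is named as an acid phosphatase) and 5 had all May values above all January values.

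Proteases were the largest group by number of unigenes. Of 26 unigenes in the tables, 10 were among the 150 and 14 had all May values above all January values. Summed over the 10, they reached 831 to 1349 FPKM in the 6 May insects and 14.4 to 98.1 FPKM in the 6 January insects. TRINITY_DN21836_c0_g1, a cathepsin L (a cysteine proteinase), had the second highest ratio. It measured 123, 28.7 and 60.3 FPKM in May larvae 1 to 3, 29.4, 47.2 and 47.1 FPKM in May adults, 1.02 to 1.70 FPKM in January larvae and 0.09 to 0.35 FPKM in January adults. The January larvae lay above the January adults without overlap, while the May stages overlapped. The difference of larvae minus adults in January was 0.90 ± 0.35 (log2, SE) and did not pass the test (adjusted p = 0.205, limma with Benjamini-Hochberg adjustment).

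Cathepsins B are cysteine proteinases of lysosomes and, in beetles, of the gut. TRINITY_DN20068_c0_g1 measured 75.6, 54.9 and 30.0 FPKM in May larvae and 229, 128 and 190 FPKM in May adults, with at most 3.13 FPKM in January. All 3 May adults were above all 3 May larvae, but the difference of -1.81 ± 0.42 (larvae minus adults, log2, SE) missed the limit of 0.01 (limma, adjusted p = 0.0139). TRINITY_DN19697_c0_g1, the other cathepsin B, measured 29.3, 41.3 and 141 FPKM in May larvae and 124, 99.4 and 220 FPKM in May adults. Here May larva 3 reached the adult values, so the groups overlapped. In January both were highest in larva 2, at 3.13 and 5.98 FPKM, and in adult 2, at 2.99 and 2.37 FPKM.

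TRINITY_DN18927_c0_g1, digestive cysteine proteinase 1, was the most abundant of the listed proteases over the 6 May insects. The study designed quantitative PCR primers for it, shown here because they fix which unigene was measured; no PCR value was used.
TRINITY_DN18927_c0_g1 forward: aaactttggatgcgatggcg
TRINITY_DN18927_c0_g1 reverse: acagcgcttcttcatcacca
It measured 481, 230 and 291 FPKM in May larvae, 491, 382 and 505 FPKM in May adults, 5.6, 50.9 and 4.72 FPKM in January larvae and 6.22, 28.6 and 5.01 FPKM in January adults. January larva 2 and January adult 2 thus stood several times above the other January insects, and both were still under the lowest May insect. May minus January was 4.67 ± 1.07 in larvae and 5.39 ± 0.74 in adults. A second unigene with the same match, TRINITY_DN18837_c0_g1, measured 33.1, 33.7 and 59.1 FPKM in May larvae and 31.3, 7.45 and 36.3 FPKM in May adults, with adult 2 lowest.

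The serine peptidases among the 150 were a chymotrypsin, a trypsin and serine carboxypeptidases, which trim amino acids from the end of a chain. The chymotrypsin TRINITY_DN17874_c0_g1 measured 97.4, 95.5 and 51.7 FPKM in May larvae and 54.6, 26.7 and 55.6 FPKM in May adults, against at most 4.01 FPKM in January. The trypsin TRINITY_DN20414_c0_g7 measured 11.9, 31.1 and 11.9 FPKM in May larvae and 21.1, 37.1 and 80.6 FPKM in May adults, against at most 1.66 FPKM in January. For both, the May stages overlapped. Carboxypeptidase Q, TRINITY_DN23444_c0_g1, a metallopeptidase, had the lowest ratio of the 10, with 32.3 to 64.0 FPKM in May and kept 16.7 and 14.6 FPKM in January larvae 1 and 2.

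The enzymes that open plant cell walls were a smaller group. Of 9 such unigenes in the tables, 5 were among the 150: 3 matched to exoglucanase B, which cuts cellulose from chain ends, 1 endoglucanase, which cuts inside the chain, and 1 endopolygalacturonase, which cuts pectin. Summed, the 5 measured 494, 362 and 669 FPKM in May larvae, 763, 76.9 and 889 FPKM in May adults, 2.53, 14.8 and 2.57 FPKM in January larvae and 8.53, 23.8 and 8.23 FPKM in January adults. May adult 2 was far below the other May adults, and January larva 2 and January adult 2 were the highest of their groups.

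Most of that gap came from TRINITY_DN23919_c0_g1, an exoglucanase B. It measured 493, 11.03 and 722 FPKM in May adults 1 to 3 and 17.4, 29.6 and 24.8 FPKM in May larvae, was listed at 0 in the 3 January larvae, and measured 0.10, 0.97 and 1.05 FPKM in January adults. May adult 2 lay below all May larvae and the other May adults above them, so the May stages overlapped and the difference of larvae minus adults was -2.74 ± 1.55 (limma, adjusted p = 0.212). A neighbouring unigene of the assembly with the same match, TRINITY_DN23919_c1_g1, measured 264, 104 and 385 FPKM in May larvae and 152, 23.8 and 117 FPKM in May adults. It again had adult 2 lowest. The third, TRINITY_DN24098_c0_g1, measured 31.9, 115 and 39.0 FPKM in May larvae and 34.8, 18.4 and 13.2 FPKM in May adults. How reads were shared between these similar unigenes was not tested.

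The endoglucanase TRINITY_DN18467_c0_g1 measured 165, 92.9 and 210 FPKM in May larvae and 78.8, 19.7 and 33.0 FPKM in May adults. Every May larva was above every May adult, with a difference of 1.96 ± 0.58 that missed the limit (limma, adjusted p = 0.0322). In January it measured 0.49, 8.54 and 0.50 FPKM in larvae and 1.97, 9.44 and 3.45 FPKM in adults, again with larva 2 and adult 2 highest. The endopolygalacturonase TRINITY_DN23888_c0_g5 measured 15.9, 21.5 and 10.9 FPKM in May larvae and 4.26, 3.96 and 3.80 FPKM in May adults, and was one of the unigenes called higher in May larvae.

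Family 1 beta-glucosidases split sugar from small glucosides. All 4 among the 150, of 10 in the tables, were matched to myrosinase 1, a beetle or aphid enzyme of this family. Their summed level was 201 to 292 FPKM in May larvae, 75.6 to 186 FPKM in May adults and 2.22 to 14.7 FPKM in January, so that larvae lay above adults in May without overlap. TRINITY_DN22319_c0_g1 measured 28.6, 36.0 and 29.3 FPKM in May larvae and 25.5, 9.74 and 15.0 FPKM in May adults, and at most 0.40 FPKM in January. TRINITY_DN20463_c0_g1 measured 142, 101 and 120 FPKM in May larvae and 71.6, 21.0 and 34.9 FPKM in May adults. Its groups did not overlap, and its difference of 1.65 ± 0.47 missed the limit (limma, adjusted p = 0.0283).

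**Figure D3:**
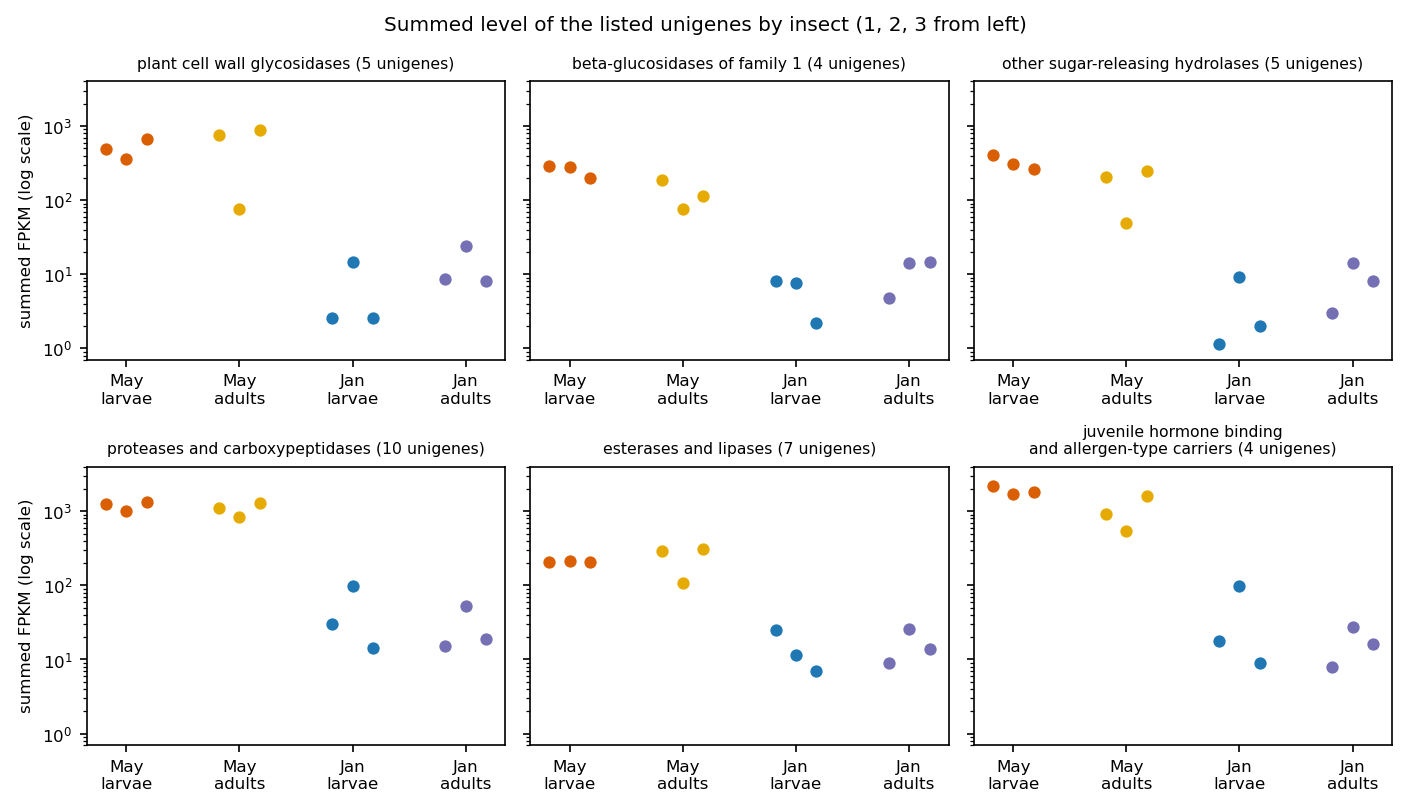
Summed FPKM (log scale) of the listed unigenes among the 150 in each of the 12 insects, insects 1, 2 and 3 of a group from left to right, for 6 gene groups. May sums lie above January sums without overlap in every panel; May adult 2 is the lowest May insect in all 6, at 76.9 FPKM against 763 and 889 FPKM in the other May adults for plant cell wall glycosidases.

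Other enzymes that release sugars gave 5 of 17 unigenes. Tissue alpha-L-fucosidase, TRINITY_DN20309_c0_g1, which takes fucose off glycoproteins, measured 204, 162 and 140 FPKM in May larvae and 35.5, 23.4 and 31.02 FPKM in May adults. A beta-galactosidase-1-like protein 2, TRINITY_DN24586_c0_g4, measured 36.9, 44.4 and 49.2 FPKM in May larvae and 7.89, 3.73 and 3.06 FPKM in May adults, and was listed at 0 in 5 of the 6 January insects. Both were clearly higher in larvae. Neutral alpha-glucosidase AB, TRINITY_DN22405_c0_g1, an enzyme that trims glucose from glycoproteins during folding, went the other way in adults 1 and 3 only, with 145, 14.5 and 183 FPKM in May adults against 27.3, 54.6 and 26.9 FPKM in May larvae.

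Esterases and lipases gave 7 of 19 unigenes. Of these, 5 came from 1 component of the assembly, TRINITY_DN23609_c0, whose 5 unigenes were all among the 150. They are carboxylesterases, a family that splits esters of food, hormones and plant toxins, and as parts of 1 component they may share reads. In January larvae 3 of them were listed at 0 in all insects. TRINITY_DN23609_c0_g1 measured 7.44, 6.67 and 6.24 FPKM in May larvae and 7.73, 4.43 and 4.69 FPKM in May adults. TRINITY_DN23609_c0_g4 was the strongest, with 47.3, 47.3 and 33.9 FPKM in May larvae and 10.6, 7.16 and 9.21 FPKM in May adults. The pancreatic-type triacylglycerol lipase TRINITY_DN18828_c0_g1, which splits fat, measured 56.9, 50.4 and 73.7 FPKM in May larvae and 55.8, 22.4 and 135 FPKM in May adults, with overlapping stages.

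The carriers with a juvenile hormone binding or Grp7 allergen domain were abundant. Proteins of this fold bind small fat-like molecules in insects. Of 6 in the tables, 4 were among the 150, and their sum was 1709 to 2189 FPKM in May larvae, 548 to 1602 FPKM in May adults and 7.86 to 97.3 FPKM in January. TRINITY_DN20773_c0_g3 measured 700, 539 and 670 FPKM in May larvae and 470, 311 and 999 FPKM in May adults, 3.18, 32.01 and 2.26 FPKM in January larvae and 0.27, 2.08 and 1.05 FPKM in January adults. May minus January was 6.37 ± 1.06 in larvae and 8.04 ± 0.62 in adults, and January larva 2 was again the highest. TRINITY_DN19585_c0_g1 measured 787, 575 and 522 FPKM in May larvae and 319, 174 and 394 FPKM in May adults, without overlap, and its difference of 1.14 ± 0.40 missed the limit (limma, adjusted p = 0.0574).

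Acid phosphatases and nucleotidases gave 4 of 9 unigenes. The prostatic-type acid phosphatase TRINITY_DN17797_c0_g1 is a secreted or lysosomal enzyme that removes phosphate groups. It measured 92.4, 4.59 and 80.5 FPKM in May adults 1 to 3, 2.46, 2.61 and 2.79 FPKM in May larvae and at most 0.77 FPKM in January. Adults 1 and 3 thus stood far above every other insect, while adult 2 was just above the larvae. All adults were above all larvae, with a difference of -3.27 ± 1.10 that missed the limit (limma, adjusted p = 0.0507). It is the 1 unigene of the 150 whose sequence was in the part of the assembly used here, and the start of its open reading frame is shown because it carries the mark of the family. The frame has 374 codons with its stop codon on the reverse complement of the 1152-base unigene, printed from base 16 to base 165, and the capitals are codons 40 to 42, which read arginine, histidine and glycine, the catalytic motif of histidine acid phosphatases.
TRINITY_DN17797_c0_g1: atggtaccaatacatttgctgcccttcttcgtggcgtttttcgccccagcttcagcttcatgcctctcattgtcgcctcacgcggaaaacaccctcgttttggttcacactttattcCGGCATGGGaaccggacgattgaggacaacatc
The sphingomyelin phosphodiesterase TRINITY_DN16348_c0_g1, which splits a membrane lipid, measured 20.5, 13.6 and 12.7 FPKM in May larvae and 16.5, 5.05 and 9.77 FPKM in May adults, and under 1 FPKM in every January insect.

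Gut lining, lectin and glucan-binding unigenes gave 3 of 14. The mucin-2-like TRINITY_DN21117_c0_g1 measured 159, 231 and 1167 FPKM in May larvae and 209, 117 and 110 FPKM in May adults. Larva 3 was far above every other insect. Both beta-1,3-glucan-binding proteins, which in insects recognise fungal walls, had larvae above adults without overlap. TRINITY_DN22783_c1_g4 measured 166, 156 and 133 FPKM in May larvae and 51.7, 15.9 and 76.8 FPKM in May adults (difference 1.89 ± 0.58, limma, adjusted p = 0.0367). Of 5 cuticle unigenes 1 was among the 150: cuticle protein 6, TRINITY_DN20685_c0_g1, measured 181, 17.3 and 88.3 FPKM in May adults and 19.99, 10.8 and 17.3 FPKM in May larvae.

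Of 29 unigenes of detoxification in the tables, 2 were among the 150. Among these 2, TRINITY_DN23537_c1_g1 is a bifunctional glutamate/proline tRNA ligase that fell in the group only through a glutathione transferase-like domain. The other, TRINITY_DN25208_c0_g2, matched to a multidrug resistance-associated pump, measured 10.5, 22.6 and 37.8 FPKM in May larvae and 5.52, 3.63 and 4.91 FPKM in May adults (difference 1.96 ± 0.49, limma, adjusted p = 0.0180). None of 20 respiratory chain unigenes was among the 150, although 3 of them had all May values above all January values. The 20 were found by keyword and include human and fish matches. Totals of other groups also hold some matches to animals other than insects. Of 14 unigenes of the lysosome pathway 6 were among the 150, and these are 5 of the cysteine proteinases above and the sphingomyelin phosphodiesterase.

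Outside these groups the muscle myosin heavy chain TRINITY_DN25111_c1_g1, a motor protein of muscle, measured 186, 598 and 112 FPKM in May larvae, 1697, 738 and 1030 FPKM in May adults and 3.85 to 41.7 FPKM in January. All May adults were above all May larvae (difference -2.23 ± 0.69, limma, adjusted p = 0.0383). Cytoplasmic malate dehydrogenase, TRINITY_DN19831_c0_g2, an enzyme of central energy metabolism, was among the last by ratio and measured 155 to 336 FPKM in May larvae, 282 to 445 FPKM in May adults and 36.8 to 110 FPKM in January. The staphylococcal nuclease domain-containing protein 1, TRINITY_DN22243_c0_g1, a Tudor-domain protein that binds RNA in animals, was the second of the 150 with quantitative PCR primers.
TRINITY_DN22243_c0_g1 forward: tccatggatgtttgaggccc
TRINITY_DN22243_c0_g1 reverse: tctgacgactgttgccagac
It measured 23.1, 58.5 and 37.8 FPKM in May larvae, 35.7, 48.7 and 29.8 FPKM in May adults, 14.5, 3.80 and 2.72 FPKM in January larvae and 7.37, 8.99 and 5.67 FPKM in January adults. January larva 1 came nearest to the May values, and the May stages overlapped.

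The 5 most abundant of the 150 over the May insects were TRINITY_DN18284_c0_g2, matched to a putative protein TPRXL, TRINITY_DN19439_c0_g1 with no match here, and the uncharacterized TRINITY_DN22373_c0_g1, TRINITY_DN18525_c0_g2 and TRINITY_DN23892_c0_g1. TRINITY_DN18284_c0_g2 measured 5184, 2301 and 3045 FPKM in May larvae and 1218, 293 and 1963 FPKM in May adults. Larvae were above adults without overlap, with a difference of 1.90 ± 0.79 that missed the limit (limma, adjusted p = 0.0984). TRINITY_DN22373_c0_g1 measured 1950, 2703 and 2687 FPKM in May larvae and 2914, 1221 and 1689 FPKM in May adults. TRINITY_DN19439_c0_g1 measured 2684, 349 and 417 FPKM in May larvae and 4077, 1649 and 3452 FPKM in May adults, with 119 FPKM in January larva 2 and 34.3 FPKM in January adult 2 but at most 4.60 FPKM in the other January insects.

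Larvae and adults were also compared within a month. The rule did not use the stage labels, but it took the lowest of all 6 May values and so left out unigenes that were low in 1 stage in May. The May counts are therefore not independent of the rule, and they describe the 150 only. In May all 150 were among the 15628 unigenes tested. Higher in larvae were 17 (11.3%), where 4.7% of all unigenes tested were called in that direction, and 3 (2%) were higher in adults, where 27.4% of all were. A call needs an adjusted p under 0.01 and a log2 difference of at least 1, from limma on log2(FPKM + 1) with Benjamini-Hochberg adjustment over all unigenes tested. The 150 all have at least 0.5 FPKM in every May library. Among the 7033 unigenes with that property, 9.34% were higher in larvae and 21.2% in adults, so a larval share of 11.3% is near this second background and the adult share of 2% is under it. The median difference of larvae minus adults was 0.29 for the 150, -0.98 for all unigenes tested and -0.66 for the 7033.

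With median-of-ratios scaling the median of all unigenes tested moved to -0.15 and that of the 150 to 1.62, and 34 were called higher in larvae and 1 in adults (background 10.6 and 10.4%). With an equal FPKM sum per library the medians were -1.36 and -0.40, and 6 were called in each direction (background 2.25 and 35.3%). The sign of the median of the 150 therefore depends on the scaling, while it lies above the median of all unigenes tested under all 3. Without May adult 3 the calls over all unigenes tested fell from 735 and 4280 to 45 and 34 of 12183. No unigene of the 150 was then called by limma, 27 and 11 had an unadjusted p under 0.05 in the 2 directions, and the adjusted p of the 20 called otherwise ran from 0.0156 to 0.0637.

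**Figure D4:**
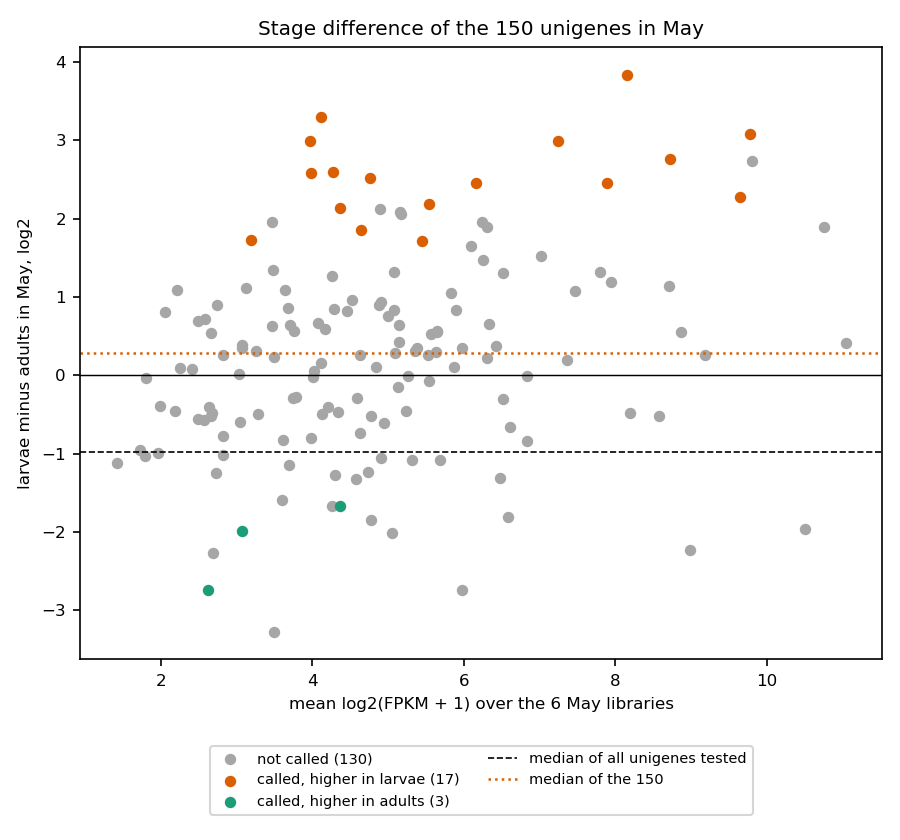
Difference of larvae minus adults in May (log2) against the mean log2(FPKM + 1) of the 6 May libraries for each of the 150 unigenes. The 17 called higher in larvae are orange, the 3 called higher in adults are green and the other 130 grey; the dashed line is the median of all 15628 unigenes tested (-0.98) and the dotted line that of the 150 (0.29).

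Larvae 1 to 3 were all above adults 1 to 3 for 38 of the 150 (background 10.2%, or 20.3% of the 7033) and all below for 23 (background 45.5%, or 43.6%). The remaining 89 overlapped. All 20 called unigenes had groups that did not overlap.

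The largest difference was that of glucose dehydrogenase, TRINITY_DN19851_c0_g1, an enzyme that oxidises glucose and in insects takes part in cuticle hardening and immune reactions. It measured 833, 1354 and 1109 FPKM in May larvae and 118, 51.9 and 67.4 FPKM in May adults, a difference of 3.84 ± 0.39 (limma, adjusted p = 0.00163). In January it measured 0.50, 32.03 and 2.85 FPKM in larvae and 4.67, 26.6 and 7.06 FPKM in adults, so the stages overlapped there, with larva 2 and adult 2 highest. Purine nucleoside phosphorylase 1, TRINITY_DN19630_c0_g1, which releases bases from nucleosides, measured 90.4, 32.1 and 52.7 FPKM in May larvae and 5.74, 4.58 and 3.50 FPKM in May adults, a difference of 3.30 ± 0.43 (adjusted p = 0.00248). The uncharacterized TRINITY_DN23892_c0_g1, with a fibronectin type III domain, measured 3852, 1476 and 2866 FPKM in May larvae and 190, 482 and 292 FPKM in May adults (3.08 ± 0.53, adjusted p = 0.00505).

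Among the enzymes that act on walls, sugars, protein and esters, the beta-galactosidase-like unigene TRINITY_DN24586_c0_g4 was higher in larvae by 3.0 ± 0.37 (limma, adjusted p = 0.00226). The fucosidase TRINITY_DN20309_c0_g1 was higher by 2.46 ± 0.28 (0.00189) and the carboxylesterase TRINITY_DN23609_c0_g4 by 2.13 ± 0.28 (0.00248). A venom serine carboxypeptidase match, TRINITY_DN20643_c0_g1, measured 286, 414 and 647 FPKM in May larvae and 86.7, 29.9 and 55.5 FPKM in May adults, a difference of 2.99 ± 0.50 (0.00449). The endopolygalacturonase differed by 1.73 ± 0.33 (0.00687). Over the 5 groups of enzymes that act on walls, sugars, protein and esters, 31 of the 150 were listed, of which 5 were called higher in larvae (background 4.7%, or 9.34% of the 7033) and 0 in adults (27.4%, or 21.2%). In 11 of the 31 all larvae were above all adults (background 10.2%, or 20.3%) and in 1 all adults were above all larvae (45.5%, or 43.6%). The median difference was 0.64, against -0.98 for all unigenes tested and -0.66 for the 7033. These 5 groups rest on keywords and also hold enzymes with roles other than digestion, such as neutral alpha-glucosidase AB.

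FAM151B, TRINITY_DN19989_c0_g1, a protein with little known function, measured 1109, 1174 and 1009 FPKM in May larvae and 124, 189 and 178 FPKM in May adults (2.76 ± 0.29, limma, adjusted p = 0.00166). In January it measured 57.3, 45.4 and 20.3 FPKM in larvae and 11.01, 18.5 and 11.6 FPKM in adults, so larvae were above adults without overlap in January as well. There the difference of 1.43 ± 0.64 was not called (limma, adjusted p = 0.205). The allergen-domain unigene TRINITY_DN18331_c0_g1 measured 603, 531 and 534 FPKM in May larvae and 114, 49.6 and 178 FPKM in May adults (2.45 ± 0.49, adjusted p = 0.00804), and the carrier TRINITY_DN24260_c3_g4 was higher in larvae by 1.72 ± 0.36 (0.00916). The match to the retinol-binding protein pinta of *Drosophila*, TRINITY_DN25046_c0_g1, measured 39.1, 64.7 and 39.5 FPKM in May larvae and 12.7, 15.5 and 9.03 FPKM in May adults (1.85 ± 0.33, adjusted p = 0.00555).

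A match to the Pol polyprotein of a retrotransposon, TRINITY_DN19259_c0_g1, measured 44.2, 43.3 and 27.9 FPKM in May larvae and 3.16, 5.71 and 8.56 FPKM in May adults (2.59 ± 0.40, limma, adjusted p = 0.00371). The other 4 called higher in larvae, TRINITY_DN27163_c3_g1, TRINITY_DN24179_c0_g1, TRINITY_DN22665_c2_g1 and TRINITY_DN22858_c0_g1, had no annotation here and differed by 2.60, 2.53, 2.28 and 2.18 (log2). TRINITY_DN22665_c2_g1 was the most abundant of them, with 1692, 1965 and 1646 FPKM in May larvae and 371, 506 and 253 FPKM in May adults. In January the adults had the higher mean, with 26.9, 113 and 154 FPKM against 56.8, 21.6 and 15.3 FPKM in larvae, though the stages overlapped.

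Higher in May adults were 3 unigenes. TRINITY_DN20826_c1_g1, with no annotation here, measured 15.6, 17.6 and 11.9 FPKM in May adults and 0.89, 1.48 and 1.87 FPKM in May larvae (-2.74 ± 0.33, larvae minus adults, limma, adjusted p = 0.00217). It was listed at 0 in all January adults. TRINITY_DN17581_c0_g1, matched to a low-density lipoprotein receptor-related protein, a family that takes up lipoproteins, measured 17.4, 17.5 and 13.1 FPKM in May adults and 2.70, 3.65 and 3.44 FPKM in May larvae (-1.99 ± 0.28, adjusted p = 0.00306). TRINITY_DN18855_c1_g1, matched to a probable phospholipid-transporting ATPase, a pump that moves lipids across membranes, measured 29.7, 45.7 and 33.7 FPKM in May adults and 8.93, 16.2 and 8 FPKM in May larvae (-1.67 ± 0.35, adjusted p = 0.00958). In all 3 the lowest May adult was above the highest May larva.

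**Figure D5:**
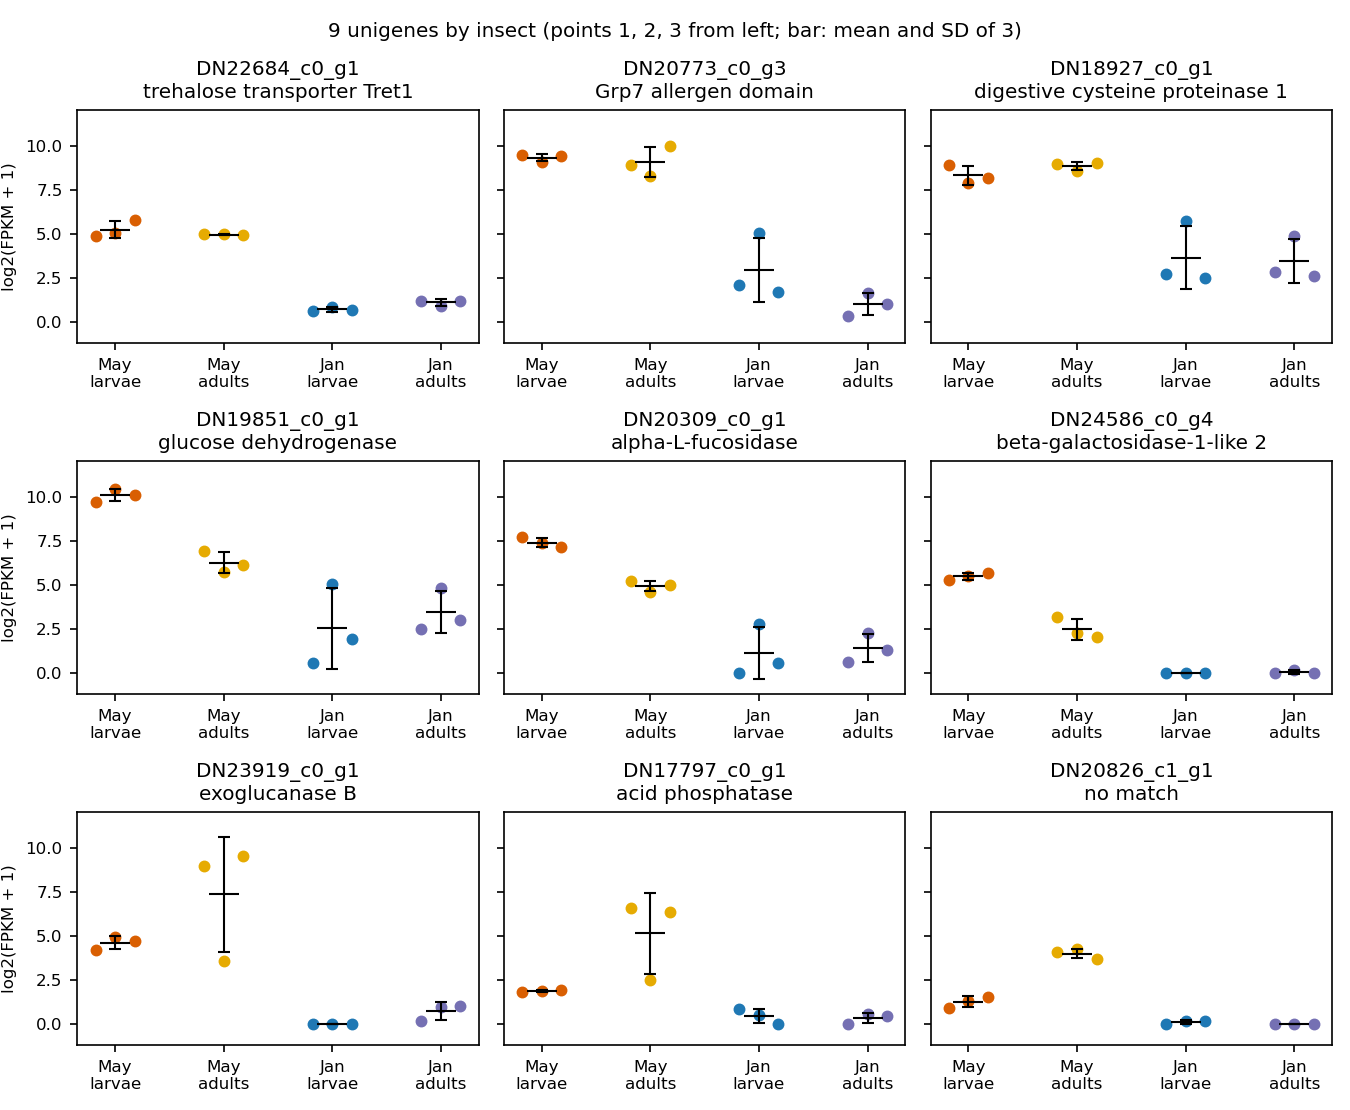
Log2(FPKM + 1) of 9 of the 150 unigenes in each insect (points 1, 2 and 3 from left), with the mean and SD of the 3 insects of a group (bars). The top panels show unigenes with overlapping May stages, the middle panels 3 called higher in May larvae, and the bottom panels 3 with a higher mean in May adults. Of the bottom 3 only TRINITY_DN20826_c1_g1 was called, and the May stages of the exoglucanase overlap. May adult 2 lies far below the other May adults in the exoglucanase and the acid phosphatase.

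In January 97 of the 150 reached 1 FPKM in at least 3 of the 6 insects and were tested for stage, and 53 were not tested. By limma none was called, where 0.0382% of the 23533 unigenes tested were called higher in larvae and 0.0297% in adults. At an unadjusted p under 0.05 there was 1 of the 97, the cathepsin L TRINITY_DN21836_c0_g1, higher in larvae. None of 87 tested was called with median-of-ratios scaling (background 0.00921% in larvae and 0.023% in adults), where 3 had an unadjusted p under 0.05 in larvae and 0 in adults. None of 97 was called with an equal FPKM sum (background 0.0339 and 0.0297%), where 0 had such a p in either direction. The median difference was -0.03 for the 97 and -0.75 for all unigenes tested. Without January larva 3, 1 of 95 was called higher in adults, while the calls over all unigenes tested rose to 237 and 8378 in the 2 directions. On the log2 scale January larva 3 correlated at 0.55 and 0.64 with January larvae 1 and 2, which correlated at 0.81 with each other. The absence of calls in January thus rests on a group with 1 insect unlike the others.

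The spread among insects of a group was compared with that of other unigenes. Only unigenes with at least 1 FPKM in all 3 insects of a group were set side by side, and these differences were not tested. The rule used the lowest May value and the highest January value, which are part of this spread. The spread of the 150 is therefore not independent of the rule and describes the 150 only. In May larvae the SD of log2(FPKM + 1) had a median of 0.51 over 147 of the 150, against 0.48 over all such unigenes, and in May adults 0.45 over the 150, against 0.43. In January it was 0.54 over 60 of the 150 in larvae, against 0.49, and 0.64 over 63 in adults, against 0.66. Without that limit, over all 150, the highest of 3 insects was more than 4 times the lowest for 18 in May larvae and 22 in May adults. In January the counts were 74 in larvae and 75 in adults. These include unigenes at or near 0, where small differences give large ratios. In January 39 of the 150 were listed at 0 in at least 1 insect. No such counts were made over all unigenes. Also over all 150, the widest SD in January was that of TRINITY_DN19439_c0_g1 in both stages, 3.83 in larvae and 2.31 in adults. The widest in May were the exoglucanase TRINITY_DN23919_c0_g1 in May adults, with an SD of 3.26, and TRINITY_DN24057_c1_g1 in May larvae, with an SD of 2.32 and 2.44, 66.5 and 4.38 FPKM. The latter was listed at 0 in all 6 January insects and measured 35.04, 36.1 and 28.8 FPKM in May adults.

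Single insects set the limits of the rule unevenly. The lowest May value came from May adult 2 in 39 of the 150, from adult 3 in 29, from larva 3 in 28, from larva 1 in 25, from adult 1 in 16 and from larva 2 in 13. The highest January value came from adult 2 in 49, from larva 2 in 35, from larva 1 in 33, from adult 3 in 16, from larva 3 in 11 and from adult 1 in 6. January adult 2 was above both other January adults in 97 of the 150, and January adult 1 was below both in 96. Among the 31 unigenes in the 5 groups of enzymes that act on walls, sugars, protein and esters, May adult 2 was the lowest May adult in 21. January larva 2 was the highest January larva in 20 of the 31 and January adult 2 the highest January adult in 26. Among the other 119 these counts were 37, 42 and 72. Counts per insect, here and below, were not made over all unigenes, so they describe the 150 only. Size factors were 1.41, 1.66 and 0.929 in January adults 1 to 3, 1.67, 1.09 and 1.27 in January larvae and 1.14, 1.51 and 1.21 in May adults. Within these groups the typical unigene was thus highest in adult 2 of each month and lowest in January larva 2.

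May adult 2 was below both other May adults by at least 1 log2 unit in 21 of the 150, of which 8 were in these 5 enzyme groups. They included 2 of the exoglucanases, the digestive cysteine proteinase TRINITY_DN18837_c0_g1, the chymotrypsin and the lipase named above, both glucan-binding proteins, the acid phosphatase and cuticle protein 6. It was above both by as much in 6, none of them in these enzyme groups. Of these, TRINITY_DN26444_c0_g2, with no annotation here, measured 45.4, 882 and 104 FPKM in May adults 1 to 3 and 445, 687 and 165 FPKM in May larvae. TRINITY_DN25470_c0_g2, also without annotation, measured 21.9, 107 and 23.8 FPKM in May adults. January larva 2 was above both other January larvae by at least 1 log2 unit in 29 of the 150, of which 10 were in these enzyme groups. What sets these insects apart was not tested.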

How the data were processed

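Values deposited by the authors are FPKM, rounded to 2 decimals, for 58956 unigenes in each of 12 libraries. The submitters' processing notes name CASAVA, Bowtie2 2.3.5.1 and RSEM 1.2.31, and the paper's methods describe an assembly by Trinity without a genome. No scaling between libraries is stated. The months come from the sample records and the paper. The 150 unigenes, the gene groups and the tests were chosen with earlier results of these data known. Gene names come from parts of the annotation tables of the study (712 and 1999 rows, 2652 unigenes in either), and groups were formed by keyword in them. Stages were compared within a month, on the 6 libraries of that month, with limma 3.58.1 (trend option) in R 4.3.3 on log2(FPKM + 1), two-sided, for unigenes with at least 1 FPKM in at least 3 libraries, and the months were not tested. The fit was also run on simulated data with independent values and no shift between libraries. That run cannot show how the scaling or a single insect affects the calls. Tables and plots used Python 3.11.15, numpy 2.4.6, pandas 2.3.3 and matplotlib 3.10.9. Unigenes are named by rule: the 10 of highest ratio, up to 4 of each group by ratio, members called between stages (values for up to 10 in each direction), those with primers, 5 on each side of place 150 and the 5 most abundant. Others are named after their values were seen. Alternatives were other added values, no filter, a replicate block, all 12 libraries in 1 fit, other thresholds, both scalings and leaving out each library.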

Additional observations from a re-analysis of the deposited data

How the results depend on the processing

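Of the 150 unigenes, 134 were chosen again with 0.1 in place of the added 1, 125 with 10, 94 with median-of-ratios scaling, 117 with an equal FPKM sum, and 125 to 144 with 1 of the 12 libraries left out. The counts of 17 higher in May larvae and 3 higher in May adults became 7 and 1 with no filter on low values (44805 unigenes tested), 11 and 3 with all 12 libraries in 1 fit, 25 and 10 at an adjusted p under 0.05, 34 and 1 with median-of-ratios scaling and 6 and 6 with an equal FPKM sum, and were 17 and 3 with added values of 0.1 or 0.5 and with no minimum difference. Over all unigenes tested the calls, 735 and 4280 of 15628, became 362 and 1702 with no filter, 715 and 4019 with all 12 libraries, 1186 and 6271 at an adjusted p under 0.05, 1587 and 1546 of 14935 with median-of-ratios scaling and 380 and 5974 of 16921 with an equal sum. Leaving out 1 May insect gave 0 to 15 and 0 to 5, namely 15 and 4 without larva 1, 7 and 2 without larva 2, 5 and 1 without larva 3, 9 and 1 without adult 1, 8 and 5 without adult 2 and 0 and 0 without adult 3. Over all unigenes tested these runs called 560 and 4341 of 12442, 318 and 1627 of 15320, 275 and 1221 of 15339, 386 and 1091 of 9291, 437 and 755 of 9345 and 45 and 34 of 12183, in the same order. Of the 20 called unigenes 4 (TRINITY_DN19851_c0_g1, TRINITY_DN19989_c0_g1, TRINITY_DN20309_c0_g1 and TRINITY_DN20826_c1_g1) were kept in the other 5 of these runs, 18 with median-of-ratios scaling and 9 with an equal sum. Over 300 alternatives for single called unigenes 176 kept the call, 124 lost it and 0 changed direction. The 176 include the runs at an adjusted p under 0.05 and with no minimum difference. Those only loosen the limits of the main fit, so no call could be lost there. In January the counts were 0 and 0 in every run but that without larva 3, which gave 0 and 1, so leaving out 1 January insect gave 0 to 0 and 0 to 1. The cause of these changes was not tested.

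With the replicate number as a block (replicate block), 0 and 0 of the 150 were called in May (34 and 16 at an unadjusted p under 0.05) and 7 and 14 of all unigenes, from 2 residual degrees of freedom. In January 0 and 0 were called, with 0 and 0 at an unadjusted p under 0.05. Larva and adult deviations of equal number correlated at 0.27, -0.23 and 0.49 in May and -0.23, 0.13 and -0.16 in January, and not every insect correlated best with its own number, so the numbers were not taken as pairs.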

Other observations

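The tables hold 215 unigenes of these gene groups outside the 150, the 58 nematode matches and 5 bacterial or fungal matches included. Of these, 11 had a May mean of at least 100 FPKM and at least 10 times the January mean, a limit set after the values were seen. Some missed the rule through 1 or 2 insects and others because a whole stage was low in May, as in TRINITY_DN22028_c0_g1, a match to myrosinase 1 with 962, 311 and 279 FPKM in May larvae and 1.46, 0.24 and 1.95 FPKM in May adults. The nematode match TRINITY_DN21981_c1_g4 was high in May larva 3 only. It measured 0, 3.21 and 3963 FPKM in May larvae and 0.52, 0 and 2.01 FPKM in May adults. In 6 of the 11 the lowest May insect was adult 2. The endoglucanase TRINITY_DN22700_c3_g2 measured 1358, 1027 and 1089 FPKM in May larvae and 221, 62.9 and 147 FPKM in May adults, and 6.03, 69.5 and 2.70 FPKM in January larvae, so that only January larva 2 passed May adult 2. The cathepsin L-like proteinase TRINITY_DN19794_c0_g1 measured 240, 168 and 589 FPKM in May larvae, 234, 52.2 and 452 FPKM in May adults, 58.8 FPKM in January larva 2 and 8.28 FPKM or less in the other January insects. Peritrophin-1, TRINITY_DN24281_c0_g1, a protein of the gut lining, measured 648, 789 and 1412 FPKM in May larvae, 270, 39.2 and 124 FPKM in May adults with 55.4 FPKM in January adult 2 and 46.1 FPKM in January larva 1.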
